A study of Homo sapiens with 6 samples.

Results

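The human genes described here were the zinc finger genes of chromosome 19 whose symbol is ZNF followed by digits, with or without a letter. All 246 such protein-coding genes of GENCODE 44 were taken, of 1476 protein-coding genes on the chromosome. Peaks of chromatin immunoprecipitation followed by sequencing were assigned to a gene when they touched its body by at least 1 nt. The study asked where 82-kDa ChAT, a mainly nuclear form of choline acetyltransferase, lies on the genome after brief exposure to Aβ1–42. SATB1, a nuclear matrix protein that organizes chromatin loops, was mapped for comparison. SH-SY5Y, a human neuroblastoma line, was used throughout, and the cells of all 4 libraries stably expressed heterologous 82-kDa ChAT, so its peaks come from an overexpressed protein. The antibody to ChAT was raised by the authors against its C-terminus, a part that the cytoplasmic form shares, and that to SATB1 was commercial. Cells had been differentiated for 3 days with 10 μM retinoic acid and then received vehicle or 100 nM Aβ1–42 oligomers for 4 h, with 3 plates per treatment. Each of the 4 lists (82-kDa ChAT and SATB1, vehicle and Aβ) came from 1 library, so no replicate error exists and no test between treatments or proteins was made. The peak lists do not give the depth of a library or a signal at sites without a peak, and they cannot show marker genes of the cell type. A gene without a peak is therefore one in which nothing passed the threshold of the authors.

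Most of these genes encode proteins with a row of zinc fingers of the Cys-His type, each of which can contact a few bases of DNA, and many carry a KRAB domain at the other end. A KRAB domain recruits TRIM28, which brings the histone methyltransferase SETDB1 and heterochromatin protein 1 to the bound DNA, and many of the targets are transposable elements. The genes arose by repeated duplication and stand in clusters along the chromosome, and the whole finger array is usually encoded by the last exon. Fingers are joined by a short linker whose sequence is well conserved. Chromosome 19 is also rich in Alu, a short interspersed repeat with very many copies in the human genome.

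Sequences of peaks that the results turn on are given on hg38, 5′ to 3′. Some peaks in the finger-coding last exon come first because coding exons of these genes held peaks of 82-kDa ChAT and none of SATB1 after Aβ. Those shown lay in ZNF208 (chr19:21973446-21973622), ZNF587B (chr19:57842190-57842335) and ZNF763 (chr19:11978435-11978513) for 82-kDa ChAT after vehicle, and in ZNF253 (chr19:19891863-19892000) for SATB1 after vehicle. The last-exon peaks of ZNF557, ZNF114 and ZNF304 are named below. Each sequence is written along the coding strand, and capitals mark a match to ACNGGNGANAANCC. These letters can encode a form of the core of the finger linker, and variants of it are not marked.
ZNF208: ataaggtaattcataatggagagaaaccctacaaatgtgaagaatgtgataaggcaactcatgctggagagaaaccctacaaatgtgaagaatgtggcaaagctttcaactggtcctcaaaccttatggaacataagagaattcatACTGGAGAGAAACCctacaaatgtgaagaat
ZNF587B: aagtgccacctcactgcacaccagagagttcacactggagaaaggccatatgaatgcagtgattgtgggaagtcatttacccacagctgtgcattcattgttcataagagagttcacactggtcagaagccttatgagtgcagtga
ZNF763: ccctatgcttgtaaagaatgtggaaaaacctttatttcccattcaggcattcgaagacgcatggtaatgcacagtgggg
ZNF253: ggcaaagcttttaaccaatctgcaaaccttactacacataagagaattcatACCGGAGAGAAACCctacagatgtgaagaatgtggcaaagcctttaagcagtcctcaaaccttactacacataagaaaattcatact
The ZNF208 and ZNF253 peaks each held 1 such match on the coding strand, and the other 2 held none. A peak without a match may still hold a variant of the linker.

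The remaining sequences gave no Alu match at the e-value limit of 1e-05. A short stretch of the repeat may not reach that limit, so the absence of a match does not exclude one. ZNF442 (chr19:12355280-12355386) held the highest score of 82-kDa ChAT after Aβ in a ZNF gene, in intron 3, and is written on the forward strand. ZNF480 (chr19:52321261-52321398), also on the forward strand, carried a peak of each protein after vehicle, and capitals mark the part common to both. For ZNF71 (chr19:56609632-56609931), where 3 lists had a peak, the first 300 nt of the common stretch are given, and capitals mark 6 copies of GATATGG.
ZNF442: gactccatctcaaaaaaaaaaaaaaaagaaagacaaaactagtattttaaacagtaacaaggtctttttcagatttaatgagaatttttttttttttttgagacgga
ZNF480: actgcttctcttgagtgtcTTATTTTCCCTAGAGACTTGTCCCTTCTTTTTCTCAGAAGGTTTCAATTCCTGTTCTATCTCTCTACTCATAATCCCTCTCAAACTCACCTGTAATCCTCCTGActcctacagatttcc
ZNF71: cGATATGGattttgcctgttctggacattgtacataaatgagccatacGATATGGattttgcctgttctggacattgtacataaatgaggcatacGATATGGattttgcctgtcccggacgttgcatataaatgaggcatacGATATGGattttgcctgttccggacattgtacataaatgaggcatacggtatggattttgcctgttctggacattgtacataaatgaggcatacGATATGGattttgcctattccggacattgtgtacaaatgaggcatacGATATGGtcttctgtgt
ZNF442 is framed by runs of A and T, and ZNF71 is a tandem repeat. Over the 502 nt of its 82-kDa ChAT vehicle peak, 61.1% of bases equalled the base 47 nt further on, compared with a median of 25.4% over the other shifts tried, and the peak spans 10.7 repeat periods.

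The 4 lists placed 79 peaks in ZNF genes. For 82-kDa ChAT these were 23 of 165 chromosome 19 peaks after vehicle (13.9%) and 19 of 169 after Aβ (11.2%). SATB1 had 8 of 49 after vehicle (16.3%) and 29 of 272 after Aβ (10.7%). ZNF gene bodies cover 7.52 Mb, or 12.9% of the positions at which a peak could lie. The exact 95% intervals of these shares (Clopper-Pearson, 9.05 to 20.2%, 6.91 to 17.0%, 7.32 to 29.7% and 7.26 to 14.95%, in the same order) all held 12.9%, and like all intervals here they cover counting error within 1 library only.

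If each peak had been laid at any position of chromosome 19 with equal chance, 21.3 and 21.8 peaks of 82-kDa ChAT (vehicle, Aβ) and 6.33 and 35.1 peaks of SATB1 would have touched a ZNF gene. The observed counts were 1.08 (95% interval 0.683 to 1.62), 0.871 (0.525 to 1.36), 1.26 (0.546 to 2.49) and 0.825 (0.553 to 1.19) times these means. The same ratio in the other 1230 protein-coding genes was 1.06, 1.01, 0.880 and 0.943. At the level of whole gene bodies, ZNF genes thus held about as many peaks as their length gives, for both proteins and both treatments.

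**Figure D1:**
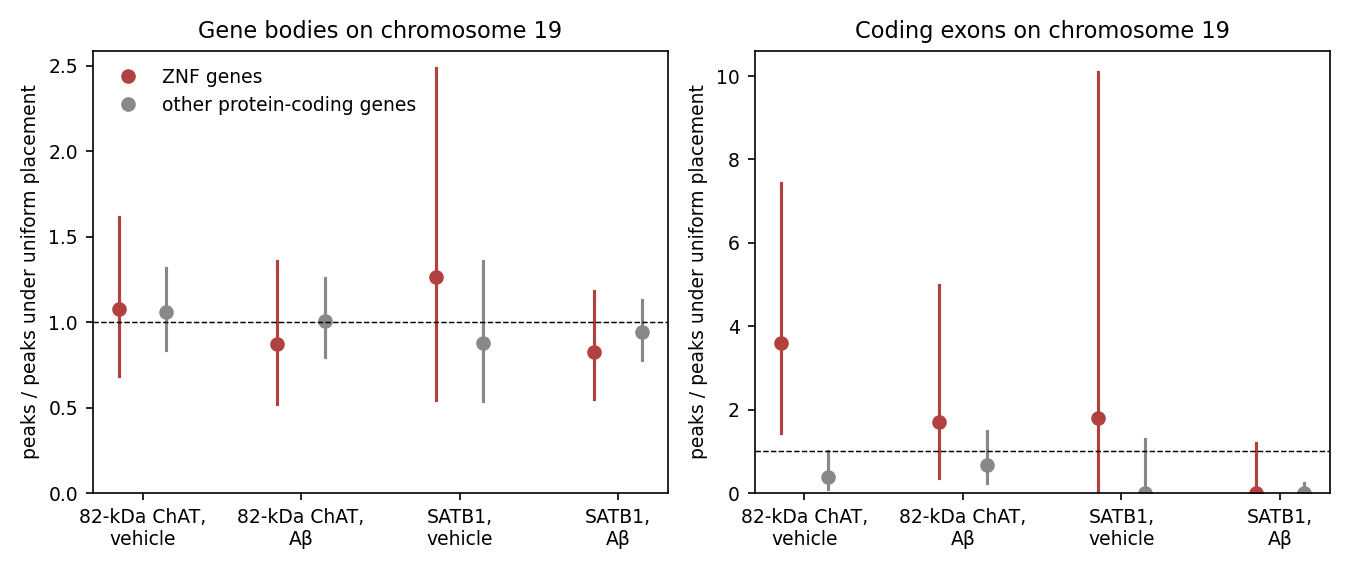
Peaks divided by the mean of uniform placement (vertical axis, no unit) for the 4 lists, in gene bodies on the left and in coding exons on the right, with red for ZNF genes and grey for other protein-coding genes of chromosome 19; points are ratios, vertical lines exact 95% Poisson intervals, and the dashed line marks 1. All gene body intervals cross 1, whereas the coding exon ratio of ZNF genes for 82-kDa ChAT after vehicle is 3.61 with an interval of 1.45 to 7.43.

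Counted by gene, 82-kDa ChAT had a peak in 20 ZNF genes after vehicle (8.13%), where 6.3% of all 1476 protein-coding genes had one. After Aβ it had a peak in 17 (6.91%), again beside 6.3% of all. SATB1 had a peak in 9 after vehicle (3.66%, beside 2.24%) and in 28 after Aβ (11.4%, beside 9.49%). ZNF genes were longer than the other genes, with a median of 25902 nt compared with 13909 nt, and uniform placement would have reached 20.3, 20.7, 6.41 and 31.9 of them. The observed numbers of genes differed from these means by fewer than 4.

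In all, 62 of the 246 genes (25.2%) had a peak in at least 1 list, beside 20.1% of all protein-coding genes of the chromosome, and 184 had none. Of the 62, 52 were found in exactly 1 list, 8 in 2 lists, 2 in 3 lists (ZNF536 and ZNF71), and 0 in all 4. For 82-kDa ChAT, 18 genes had a peak after vehicle alone, 15 after Aβ alone, and 2 after both. SATB1 had 9 genes after vehicle alone, 28 after Aβ alone, and 0 after both. These splits over lists and treatments were not computed for all genes. The paper reports few peaks common to both treatments over the whole genome, for either protein. Little overlap is therefore not shown to be particular to ZNF genes. The change in SATB1 went with the size of its lists, which held 49 and 272 peaks on the chromosome, and how far depth differed between these libraries is not known.

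The ZNF genes fell into 10 clusters of at least 5 genes with gaps of at most 500 kb, which held 232 of them, and 14 stood apart. The cluster from ZNF264 to ZNF446, at the far end of the long arm and with 43 genes, had 14 peaks where uniform placement gives 8.20 (ratio 1.71, 95% interval 0.933 to 2.86), with 4 and 2 of 82-kDa ChAT and 2 and 6 of SATB1. This was the densest of the clusters with at least 10 peaks, at 19.3 peaks per Mb of gene body. Beside the centromere, the cluster from ZNF101 to ZNF254, with 37 genes over 4.46 Mb, had 12 peaks where 19.7 were given by placement (ratio 0.609, 0.314 to 1.06). The cluster from ZNF175 to ZNF331 held the most peaks, 15 beside 13.8. All of these intervals include 1, as did those of the other 7 clusters, so that no cluster stood apart from its length beyond counting error.

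**Figure D2:**
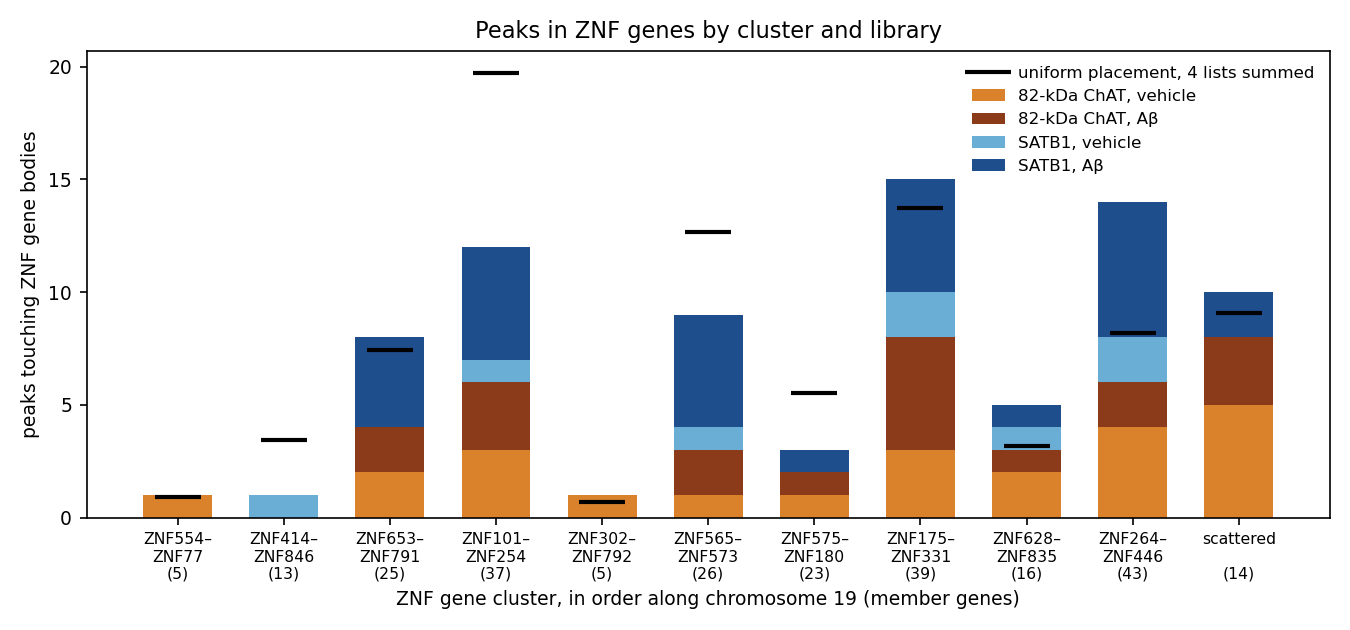
Number of peaks touching ZNF gene bodies (vertical axis) in each cluster, named by its first and last gene with the number of genes in parentheses, in order along the chromosome, with the 14 genes outside clusters at the right; colours are the 4 lists and black dashes the sum expected under uniform placement. The clusters from ZNF101 to ZNF254 and ZNF565 to ZNF573 lie below their dash (12 beside 19.7 and 9 beside 12.6) and the cluster from ZNF264 to ZNF446 lies above it (14 beside 8.20).

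Both treatments and proteins were spread over the clusters rather than gathered in 1 of them. SATB1 after Aβ had 5 peaks in each of the clusters from ZNF101 to ZNF254, ZNF565 to ZNF573 and ZNF175 to ZNF331, and 6 in the cluster from ZNF264 to ZNF446. The 23 genes from ZNF575 to ZNF180 had 3 peaks beside 5.51 from placement, and the 13 genes from ZNF414 to ZNF846 had 1 beside 3.44. In the latter the single peak was that of SATB1 after vehicle in ZNF559.

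Nearly all peaks of SATB1 after Aβ in ZNF genes matched Alu. Of its 29 peaks in ZNF genes, 28 matched Alu (96.6%, 95% interval 82.2 to 99.9%), compared with 102 of 111 peaks in other protein-coding genes (91.9%, 85.2 to 96.2%) and 23.7% of windows of 139 nt laid along the ZNF genes. The intervals of both gene sets overlapped, and the Alu share was high over the whole list (74.3% genome-wide). The only peak without a match lay in an intron of ZNF536 (chr19:30645220-30645368, score 64.9), and all of its 51-mers occur more than once in the genome. The 49 chromosome 19 peaks without a match, laid evenly on windows that do not match Alu, would give 6.56 in ZNF genes. The 1 seen was 0.152 times this mean (0.00386 to 0.849). Alu-matching peaks laid on Alu-matching windows gave a ratio of 1.08 (0.719 to 1.56). Outside protein-coding genes, 93 of 132 peaks matched Alu (70.5%), a lower share than in either gene set. Peaks without a match were thus scarce in other genes too, and their scarcity is not shown to be particular to ZNF genes.

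Peaks of the other 3 lists in ZNF genes matched Alu less often than those of SATB1 after Aβ. An Alu match was found in 1 of 23 peaks of 82-kDa ChAT after vehicle (4.35%, 0.110 to 21.9%), in 3 of 19 after Aβ (15.8%, 3.38 to 39.6%), and in 0 of 8 peaks of SATB1 after vehicle (0 to 36.9%). Windows along ZNF genes matched Alu in 23.6, 20.98 and 23.2% for the peak lengths of these lists. The interval for 82-kDa ChAT after vehicle therefore lay below the share of windows, while those of 82-kDa ChAT after Aβ and SATB1 after vehicle included it. In other protein-coding genes the shares were 14.1, 29.5 and 22.2%, with intervals that overlapped those of the ZNF genes. For 82-kDa ChAT after vehicle the interval there (7.26 to 23.8%) also lay below the 29.2% of windows of those genes. A low Alu share in this list was thus not particular to ZNF genes. The single match after vehicle was in ZNF814, and those after Aβ in ZNF20, ZNF14 and ZNF577.

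**Figure D3:**
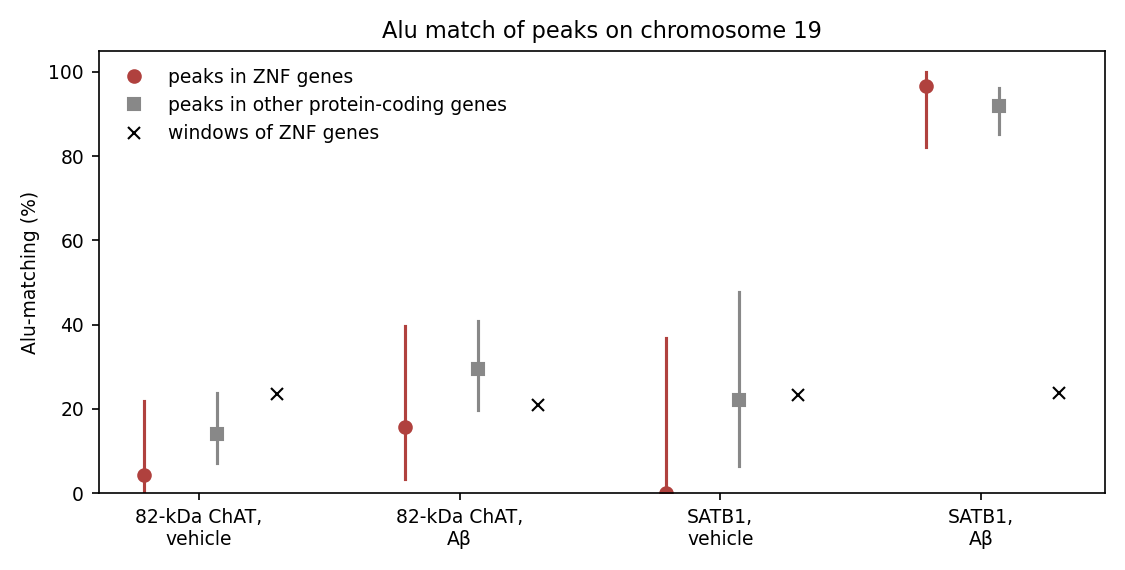
Percentage of peaks that match Alu (vertical axis) in ZNF genes (red circles) and other protein-coding genes of chromosome 19 (grey squares) for the 4 lists, with exact 95% intervals as vertical lines, and the percentage of windows of ZNF genes that match (crosses). SATB1 after Aβ stands at 96.6 and 91.9%, far above the windows at 23.7%, while the 3 other lists stand at 4.35, 15.8 and 0% in ZNF genes.

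Within the repeat, the SATB1 peaks after Aβ covered some positions more often than windows did. Of the 28 Alu-matching peaks, 20 covered positions 112 to 116 of the 287 nt copy used for the search. These positions were reached by 37.7 to 38.1% of Alu-matching windows of ZNF genes and 63.6 to 66.7% of the other 195 Alu-matching SATB1 peaks of the chromosome. They were picked as the most covered by the same 28 peaks, so the difference there is description only. At position 145 the shares were 35.7% of the peaks in ZNF genes, 34.0% of windows and 61.5% of the other peaks. The identity of the 28 peaks to the copy was 77.9 to 93.5%, with a median of 83.6%, so they were not near-identical copies of it. The repeat lay in the same direction as the gene in 15 cases, and 17 peaks matched its reverse strand when read on the forward strand of the chromosome. Of the 28, 20 were multi-copy, meaning that more than 50% of their 51-mers occur more than once in the genome, and the placement of reads among copies is uncertain there.

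**Figure D4:**
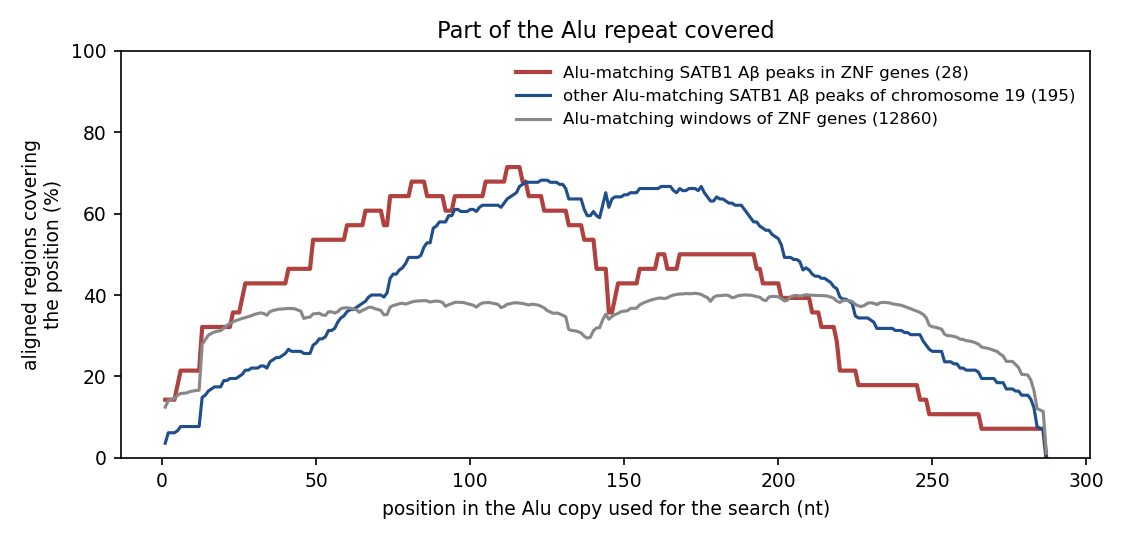
Percentage of aligned regions that cover each position (vertical axis) of the 287 nt Alu copy (horizontal axis, nt), for 28 SATB1 peaks after Aβ in ZNF genes (red), 195 other Alu-matching peaks of the same list on chromosome 19 (blue) and 12860 Alu-matching windows of ZNF genes (grey). The red line is highest at positions 112 to 116, where 20 of 28 peaks align, while the grey line does not pass 40.4%.

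Among the genes with these Alu peaks, 3 are described because of what their protein is known to do, and were picked after the peaks were seen. ZNF274, which is known to bring SETDB1 and TRIM28 to the finger-coding ends of other ZNF genes, had a SATB1 peak in intron 4 (chr19:58191213-58191425, score 59.5). ZNF91, known to repress SVA elements, had 1 in intron 1 (score 66.1), and ZNF93, known to repress a family of LINE-1 elements, had 1 in an intron (score 55.5). These scores were near or below the median of 66.4 of the whole list. ZNF345 and ZNF665 had 2 peaks each, and 1 peak in the overlap of ZNF551 and ZNF154 was counted for both genes.

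Coding exons, which hold the finger arrays, were then taken apart from whole gene bodies. A coding exon of a ZNF gene was touched by 7 peaks of 82-kDa ChAT after vehicle, where uniform placement gives 1.94 (ratio 3.61, 95% interval 1.45 to 7.43). After Aβ the count was 3, beside 1.76 (1.70, 0.352 to 4.98). SATB1 had 1 after vehicle, beside 0.552, and 0 after Aβ, beside 3.05. In coding exons of other genes, 82-kDa ChAT had 4 peaks after vehicle, beside 10.2 (0.392, 0.107 to 1.004), and 6 after Aβ, beside 8.80. SATB1 had 0 there in both treatments, beside 2.87 and 15.9. The interval of ZNF coding exons for 82-kDa ChAT after vehicle lay above 1 and above that of other genes, but coding exons were 1 of several parts of a gene compared here, and were singled out after the values were seen. Among peaks at or above the list median score, 3 remained beside 0.981 (3.06, 0.630 to 8.93), an interval that included 1. The intervals of coding exons and whole gene bodies of ZNF genes overlapped in this list too, and in the other 3 lists that of coding exons included 1.

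The 7 coding peaks of 82-kDa ChAT after vehicle lay in ZNF557, ZNF763, ZNF208, ZNF536, ZNF302, ZNF114 and ZNF587B. Their scores ran from 51.5 in ZNF763 to 130.74 in ZNF302, where the list median was 67.4. In the MANE Select transcript, the reference transcript of a gene, 6 of them were coding and 5 of these 6 were in the last exon (ratio 4.24, 1.38 to 9.89). The exception was ZNF536 (chr19:30548141-30548315, score 64.2), in exon 4 of 5. ZNF302 was coding in another transcript only, and its peak of 58 nt (chr19:34684167-34684224) held a run of 49 A on the forward strand and had 8.62% G and C. In ZNF208, 52.0% of 51-mers were found more than once in the genome, so reads from related ZNF genes may not be told apart there. The share was 87.5% in ZNF302, where the placement of reads is also uncertain. It was 25% in ZNF587B and 0 in ZNF557, ZNF763, ZNF536 and ZNF114.

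The 3 coding peaks after Aβ were in ZNF729, ZNF28 and ZNF304. ZNF729 was touched in exon 1 (chr19:22286514-22286595, score 66.3), ZNF28 in a coding exon outside the MANE transcript (score 50.9), and ZNF304, known for a part in silencing of the INK4-ARF locus, in the last exon (chr19:57356125-57356195, score 59.7). SATB1 after vehicle touched the last exon of ZNF253 (score 66.9). Over all lists, 9 peaks were in MANE coding exons and 7 of them in the last, which holds 84.5% of the MANE coding sequence of the ZNF genes. The share in the last exon was thus close to the share of coding sequence there. No gene had a coding peak in more than 1 list.

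The finger linker pattern printed above, searched on both strands, was found in 1 of 23 peaks of 82-kDa ChAT after vehicle and 1 of 8 of SATB1 after vehicle, and in 0 of 19 and 0 of 29 after Aβ. Among windows of 138 nt it was found in 24.04% of those on ZNF coding exons, 2.33% of those on ZNF genes and 0.345% of all on the chromosome. Of the 7 coding peaks of 82-kDa ChAT after vehicle, 1 held it. The pattern was therefore not more frequent in the coding peaks than in coding windows, on a small number of peaks. Variants of the linker that differ from the pattern were not counted.

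Counting all exons, coding or not, 12 and 6 peaks of 82-kDa ChAT and 5 and 1 of SATB1 (vehicle, Aβ) touched an exon of a ZNF gene, 2.47 (1.28 to 4.32), 1.29 (0.472 to 2.80), 3.55 (1.15 to 8.28) and 0.128 (0.00324 to 0.714) times uniform placement. In other genes the ratios for exons were 0.711, 0.529, 0 and 0.274. The SATB1 vehicle peaks in exons of ZNF383, ZNF71, ZNF773 and ZNF587 overlapped 82-kDa ChAT vehicle peaks there. The vehicle ratios of both proteins thus rest in part on the same sites and are not independent. Exons were also among several parts of a gene compared here. The other 28 peaks of SATB1 after Aβ were intronic, 27 of them Alu-matching, in genes where Alu matched 26.8% of windows in introns, 12.7% of those touching exons and 3.44% of those touching coding exons. The part of this Alu content in the exon counts was not tested. The only exon touched in that list was the last of ZNF665, outside its coding part (chr19:53164226-53164367, score 66.1).

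Upstream of transcription starts, within 2000 nt, 82-kDa ChAT had 0 peaks after vehicle, beside 3.29, and 4 after Aβ, beside 3.28, at ZNF780B, ZNF285, ZNF610 and ZNF160. Only that of ZNF160 matched Alu. The highest score of the 4 was 100.53 at ZNF610 (chr19:52348862-52348919), 226 nt before a start, and the lowest 65.0 at ZNF780B, 690 nt before one. SATB1 had 0 after vehicle, beside 0.968, and 5 after Aβ, beside 5.37, at ZNF347, ZNF665, ZNF628, ZNF17 and ZNF497. All 5 matched Alu, and they lay 327 nt (ZNF665) to 1336 nt (ZNF347) before a start. The upper bound for 82-kDa ChAT after vehicle was 1.12 times placement, so its 0 peaks lay within counting error of 3.29.

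ZNF536, known to restrain neuronal differentiation induced by retinoic acid, had the most peaks, 6, and is by far the longest of the genes at 488696 nt. After vehicle 82-kDa ChAT had 3 peaks there, with scores of 88.3, 64.2 and 74.3, and after Aβ it had 2 others, with scores of 73.1 and 59.5. SATB1 after Aβ had the peak without Alu described above, and SATB1 after vehicle had none. At 0.0123 peaks per kb, ZNF536 was sparser than ZNF71, with 0.0962, and ZNF837, with 0.149 from 1 peak of each protein after Aβ.

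At 5 sites, a peak of 82-kDa ChAT and a peak of SATB1 after vehicle covered the same stretch. Both lists share the same vehicle input, and whether its peaks were left out of the deposited lists is not known. Their values are therefore given side by side, and the common positions are no independent support for either protein. Such overlap was not counted outside ZNF genes, so it is not shown to be particular to them. The sites lay in the last exon of ZNF383 (scores 96.8 for 82-kDa ChAT and 63.0 for SATB1), in intron 4 of ZNF480 (78.3 and 66.9), in a noncoding exon of ZNF71 (126.61 and 103.09), in a noncoding exon of ZNF773 (80.3 and 55.9) and where ZNF814 and ZNF587 overlap (53.9 and 70.6). None of these 10 peaks matched Alu. The ZNF71 site was the only one with a peak after Aβ, of 82-kDa ChAT, with a score of 57.5. The highest score of SATB1 after vehicle in a ZNF gene and the second highest of 82-kDa ChAT after vehicle were both at this tandem repeat.

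Base composition differed between the SATB1 lists, with ranges that overlapped. The G and C content of peaks in ZNF genes had a median of 38.1% for SATB1 after vehicle (22.6 to 50.3%) and 53.2% after Aβ (36.9 to 60.6%), and the median of the 28 Alu-matching peaks was 53.3%. For 82-kDa ChAT the medians were 42.6% after vehicle (8.62 to 60.8%) and 46.0% after Aβ (24.3 to 62.8%). Outside ZNF genes on the chromosome the medians were 52.9 and 46.9% for 82-kDa ChAT and 43.1 and 52.6% for SATB1. A median near 53% was thus found for SATB1 after Aβ, where Alu matches were frequent, and also outside ZNF genes for 82-kDa ChAT after vehicle, where 14.8% of peaks matched Alu.

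**Figure D5:**
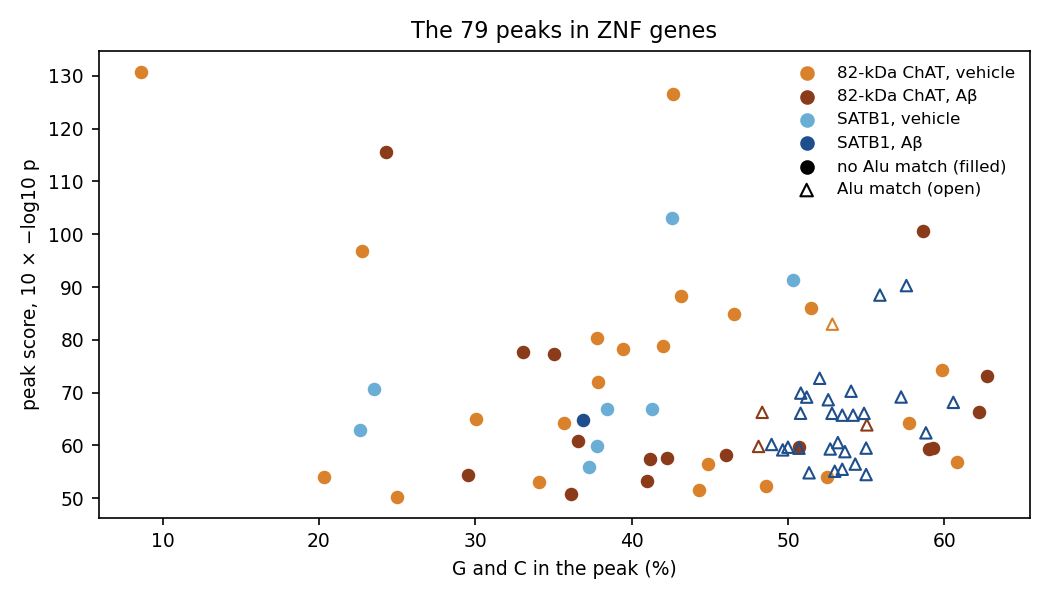
Score (vertical axis, 10 × −log10 p from the peak caller) and G and C content (horizontal axis, %) of the 79 peaks in ZNF genes, coloured by list, with open triangles for peaks that match Alu. The SATB1 peaks after Aβ gather between 49.0 and 60.6% G and C except for the ZNF536 peak at 36.9%, and the highest score of all, 130.74, is at 8.62% in ZNF302.

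Scores rank peaks within a list and cannot be compared between libraries. In ZNF genes, 12 of 23 peaks of 82-kDa ChAT after vehicle and 8 of 19 after Aβ reached the median of their list, and of SATB1 5 of 8 and 9 of 29 did. SATB1 peaks after Aβ in ZNF genes thus had scores from 54.5 to 90.3 and mostly lay in the lower part of their list. For this list, uniform placement gives 35.1 ZNF peaks from all chromosome 19 peaks and 15.5 from those that reach the genome-wide median. More chromosome 19 peaks of the list thus lay below that median than reached it, and the low rank is not shown to be particular to ZNF genes. Peaks in ZNF genes were short, with medians of 143, 109, 142 and 143 nt. The long ones, of 502, 556 and 493 nt, were those at ZNF71.

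Other genes of the same system were also looked up. Of 18 further zinc finger genes of chromosome 19 with ZFP, ZSCAN, ZBTB, ZIM or ZIK symbols, 3 had a peak (16.7%, beside 20.1% of all protein-coding genes of the chromosome): ZFP82 and ZFP28 for SATB1 after Aβ, both in Alu, and ZSCAN5A for SATB1 after vehicle. TRIM28, at the end of the chromosome, and SETDB1 had none. Of the 12 partners of KRAB proteins looked up across the genome, 4 had a peak of 82-kDa ChAT after vehicle, where 10.5% of all 20033 protein-coding genes had one: CBX1 (score 50.7) and CBX5 (76.3), which encode heterochromatin protein 1 forms, the chromatin remodeller ATRX (69.3), and PPHLN1 (112.9), which encodes a subunit of the HUSH silencing complex. CBX5 was also the only partner with a peak of SATB1 after Aβ (62.0, Alu-matching), where 12% of all genes had one. After Aβ, 0 of the 12 had a peak of 82-kDa ChAT, beside 11.1% of all genes, and 0 had a peak of SATB1 after vehicle, beside 4.83%. Over the 4 lists, 4 of the 12 (33.3%) had a peak, beside 26.9% of all genes, and gene length was not taken into account in these shares.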

How the data were processed

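The data used were 4 peak lists as deposited, 1 for each of 82-kDa ChAT and SATB1 after vehicle or Aβ. The authors mapped reads to hg38 with the Burrows-Wheeler Aligner and ran MACS with a p-value limit of 1e-05. The paper states that repeats were masked in the mapping, but not how. Many deposited peaks matched Alu all the same, and how the masking bears on the Alu shares was not tested. The paper also describes leaving out significant peaks that the matching input gave. As deposited, the lists held 8270 and 6563 peaks of 82-kDa ChAT (vehicle, Aβ) and 3065 and 6055 of SATB1. Each number is larger than the one in the paper, so whether input peaks were left out of these lists is not known. The deposited score is −log10 of the p-value multiplied by 10, so it is at least 50. Input files were not analysed here, and reads per library are not known.

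Starts were converted to positions counted from 1. Genes, coding exons and MANE Select transcripts came from GENCODE 44. The mean of uniform placement was computed exactly from the length of every peak, avoiding undetermined bases, with no simulation. Repeats, Alu among them, were kept as positions where a peak could lie. Counts have exact Poisson and shares exact Clopper-Pearson intervals at 95%. An Alu match was a blastn (2.17.0) hit at an e-value of 1e-05 to a 287 nt Alu copy taken from the reference genome. This copy consists of a SATB1 peak after Aβ and the 93 nt before it. It thus comes from the list whose Alu share and covered positions it was used to describe. Windows tiled the chromosome at the median peak length of each list. Multi-copy peaks had more than 50% of their 51-mers present more than once on chromosomes 1 to 22, X and Y. Python 3.11.15, numpy 2.4.6, pandas 2.3.3, scipy 1.17.1, numba 0.67.0 and matplotlib 3.10.9 were used, and scripts were tested on simulated data.

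Named genes had peaks in at least 3 lists, overlapping peaks of 2 lists, a peak in a coding exon or within 2000 nt upstream of a start, or were among the 10 with the most peaks. ZNF20, ZNF14, ZNF577, ZNF559, ZNF274, ZNF91, ZNF93, ZNF551 and ZNF154 were named after their values were seen. Sequences shown were the highest scoring and shared peaks, with coding peaks added later, and the base sequences of Alu-matching peaks are not reported here. Peaks that touch untranslated exon parts are given by position only. The genes and lists were chosen with earlier results of these data known.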

Additional observations from a re-analysis of the deposited data

Results flagged for a closer look

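The number of peaks in ZNF genes was lower after Aβ than after vehicle for 82-kDa ChAT and higher for SATB1. 82-kDa ChAT had 23 peaks after vehicle and 19 after Aβ, a difference of -4, and SATB1 had 8 and 29, a difference of 21. The Poisson intervals of the 82-kDa ChAT counts overlapped (14.6 to 34.5 and 11.4 to 29.7). As a share of the chromosome 19 peaks of each list, ZNF genes held less after Aβ for both proteins (13.9 and 11.2%, 16.3 and 10.7%). With 1 library each and depth not known, the difference between the proteins was not tested.

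Peaks also lay on alternate and unlocalized sequences of chromosome 19, which were not part of any comparison above because the annotation used does not cover them. 82-kDa ChAT had 5 such peaks after vehicle and 4 after Aβ, and SATB1 had 1 after vehicle and 11 after Aβ, of which 10 matched Alu. Their assignment to ZNF genes was not tested.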

How the results depend on the processing

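With the score at or above the list median, peaks in ZNF genes numbered 12 and 8 for 82-kDa ChAT (vehicle, Aβ) and 5 and 9 for SATB1, fewer because such a limit removes peaks, and all 9 SATB1 peaks after Aβ matched Alu (100%). Without multi-copy peaks, SATB1 after Aβ had 8 peaks in ZNF genes, of which 100% matched Alu. These were 7 of 100 recomputed values. The other 93 stayed within the 95% counting interval of a share or ratio, or within 1.5 times a count, although at the list median the Alu share of 82-kDa ChAT went from 4.35 to 8.33% (vehicle) and from 15.8 to 25% (Aβ), and the coding exon ratio of SATB1 after vehicle from 1.81 to 3.81 on 1 peak. Those 93 covered the peak midpoint, gene bodies extended by 2000 nt, a wider list of zinc finger symbols, a stricter Alu match, positions limited to genes, and cluster gaps of 250 or 1000 kb, which gave 12 and 9 clusters in place of 10. The ratio of SATB1 after Aβ in gene bodies ran from 0.581 at the list median to 0.920 among positions in genes only. For coding exons, 4 alternatives added after seeing the data gave 3.06 to 4.13 for 82-kDa ChAT after vehicle, resting on 3 to 7 peaks, and the interval included 1 at the list median (0.630 to 8.93) but not under the other 3.

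No paired analysis was possible because each protein and treatment has 1 library. Small counts limit every statement: with 8 to 29 peaks per list, the interval of a ratio is wide, and absence of a peak means that no signal passed the threshold.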
